A study of Mus musculus with 45 samples.

Results

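The 10 genes described here are H19, Igf2, Igf2bp1, Igf2bp3, Lin28b, Hmga2, Dlk1, Peg3, Cdkn1c and Hif3a, a set of imprinted and fetal growth genes. All 10 were found by their symbol in both deposited tables, which list 52636 genes each. The set was chosen by measured values of the same series: its genes were picked for their levels in the sorted-cell libraries, mainly for the difference between adult and E18.5 cells, and that difference is therefore given only as a description. The question addressed was how these genes were expressed in Lgr5-expressing stem cells of the mouse small intestine across fetal and adult stages, with and without Lgr5, and in organoids grown from fetal intestine.

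Lgr5 is a receptor for Rspondins and marks intestinal stem cells. In the Lgr5-DTReGFP line, the Lgr5 locus is disrupted by the knock-in of a fusion of eGFP with the diphtheria toxin receptor. The eGFP+ve cells were sorted, so each library is bulk RNA of a sorted population. At E16.5, heterozygous (HE) cells were pooled from 7 embryos of litter 85 and from 8 embryos of litter 97, and homozygous (KO) cells from 2 and 6 embryos of the same litters. At E18.5, 2 HE libraries came from single embryos. Fetal cells were taken from the whole small intestine. From adult HE mice 71 and 77, aged 2 months, duodenum and ileum were sorted separately. A second line, Lgr5-GFP-CreERT2 with the Rosa26R-Tomato reporter, gave eGFP+ve/RFP+ve ileal cells of adults aged 2 months, harvested 48 h after 2 mg of tamoxifen, with 2 libraries labelled Lgr5-Cre/+ (HE) and 3 labelled Lgr5-Cre/flox (cKO). Every HE control of both lines thus carried only a single intact Lgr5 allele, and no sorted group was wild type. The 30 organoid libraries came from E17.5 Lgr5-DTReGFP embryos at passage 4, from WT cultures 10, 5 and 30 and KO cultures 7 and 2. Each culture received Rspondin 1, 2 or 3 at 100 or 5 ng/ml in medium with EGF and noggin.

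Values are deposited CPM, reads of a gene scaled to a common library total. Sorted-cell libraries held 1275940 to 9984665 reads, so that a single read was worth 0.1002 to 0.784 CPM, and organoid libraries held 18127864 to 33105691 reads. A value of 3 reads or fewer was treated as not distinguishable from 0, and this floor covers counting error only. Lgr5 itself fell from 104.25 to 64.75 CPM between the HE and KO pools of litter 85 and from 125.1 to 51.65 CPM between those of litter 97 (log2 fold change -0.97, SE 0.18, limma adjusted p = 0.0795). In the Cre line Lgr5 did not follow the labels: it was at 52.8 and 87.55 CPM in the libraries labelled HE and at 89.15 to 109.35 CPM in those labelled cKO, although the deletion removes a single exon and its other exons can still be counted. The genotype of 2 of these 5 libraries also differed between the labels and the study's supplementary dataset, and Xist, a transcript of female cells, was at 0.65 and 1.7 CPM in the libraries labelled HE and at 1162 to 1551 CPM in those labelled cKO, so that sex and labelled genotype cannot be told apart there. The 13 epithelial markers summed to 3588 to 8871 CPM across the sorted libraries, and at least 12 of the 13 stood above 10 CPM in every library of each group.

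Imprinted genes are transcribed from only the maternal or only the paternal chromosome, and many of them set the rate of fetal growth. Igf2 is a paternally expressed growth factor, while its neighbour H19 is a maternally expressed long noncoding RNA. Both are usually shut down after birth in most tissues. A second fetal circuit runs through LIN28B, an RNA-binding protein that blocks maturation of the let-7 microRNAs. let-7 in turn represses a small group of fetal mRNAs, among them Hmga2, Lin28b itself and the mRNA-binding proteins of the IGF2BP family.

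In the GRCm38 genome build, 5 of the 10 genes lie on chromosome 7: H19 (142575529 to 142578143, ENSMUSG00000000031), Igf2 (142650766 to 142666816, ENSMUSG00000048583), Cdkn1c (143458339 to 143461050, ENSMUSG00000037664), Peg3 (6703892 to 6730431, ENSMUSG00000002265) and Hif3a (17031507 to 17062427, ENSMUSG00000004328). H19 and Igf2 were 72.6 kb apart, and Cdkn1c began 792 kb beyond Igf2 in the same imprinted region. Lin28b (45376620 to 45486395) and Hmga2 (120361275 to 120476469) lie on chromosome 10, Igf2bp1 (95957163 to 96005940) on chromosome 11, Igf2bp3 (49085223 to 49214957) on chromosome 6 and Dlk1 (109452823 to 109463336) on chromosome 12. Dlk1 is on the plus strand and the other 9 are on the minus strand. H19 is annotated as a lincRNA and the other 9 as protein coding.

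The sequences that link the LIN28 and let-7 members are the let-7 seed and its matches in their 3′ UTRs. They are shown as a feature that part of the set shares. Hmga2, Lin28b and the IGF2BP family are named above as let-7 targets, so the counts of matches are only a description. The mature let-7a sequence, from RefSeq (GRCm38.p6, chr13:48538239-48538260, minus strand), has its seed, bases 2 to 8, in capitals.
mmu-let-7a-5p: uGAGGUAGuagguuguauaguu
The same seed was shared by 11 mature microRNAs of the table. Its match, CTACCTC, was searched on the sense strand in the longest annotated 3′ UTR of each gene, and 8.95% of 20838 genes held at least 1 match. Hmga2, Lin28b and Igf2bp1 held 4 matches each. Among genes with a 3′ UTR of similar length, as many matches were found in 0.124% for Hmga2, 0.298% for Lin28b and 0.337% for Igf2bp1. Igf2bp3, Peg3 and Hif3a held 1 match each, a number also reached by 13.4%, 19.1% and 23.6% of genes of similar length. Igf2, Dlk1 and Cdkn1c held none, and H19 has no 3′ UTR. The first match of each of the 3 richest genes and that of Igf2bp3 are printed with 15 bases before and 8 after, the match in capitals. They lie at chr10:120364217-120364246 (Hmga2), chr10:45381015-45381044 (Lin28b), chr11:95961771-95961800 (Igf2bp1) and chr6:49086780-49086809 (Igf2bp3), all on the minus strand of GRCm38.
Hmga2 site 1: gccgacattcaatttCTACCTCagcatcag
Lin28b site 1: acccgggcgggaagtCTACCTCatgcaagc
Igf2bp1 site 1: gctgtgcgaagtaaaCTACCTCaaggtgtg
Igf2bp3 site 1: tgcatttttactcaaCTACCTCaggtattc
A match is a run of letters and was not tested as a binding site, and mature let-7 was not measured in these libraries.

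H19 is also the host of a microRNA, miR-675, which is cut from its first exon. Both mature forms are printed because the gene model of this microRNA ranked among the genes most like the set. They lie at chr7:142577112-142577133 and chr7:142577078-142577099, on the minus strand, and their seeds, bases 2 to 8, are in capitals. Neither carries the let-7 seed.
mmu-miR-675-5p: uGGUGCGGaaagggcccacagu
mmu-miR-675-3p: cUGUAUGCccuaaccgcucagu

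H19 was the most abundant of the 10 in fetal cells. It stood at 8632 and 6178 CPM in the E16.5 HE pools, at 5749 and 6007 CPM in the KO pools, and at 900.55 and 903.45 CPM in the E18.5 libraries. In the duodenum and ileum of adult mouse 71 it was at 0.4 and 0.25 CPM, and in those of mouse 77 it was at 0 in both. The Cre HE libraries held 0.35 and 0.65 CPM and the Cre cKO libraries 1.75, 0.35 and 3.35 CPM. Thus the 3 stages did not overlap, and 7 of the 9 adult libraries were at or under the floor of 3 reads.

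Igf2, the growth factor encoded next to H19, was at 1243.8 and 1292.85 CPM in E16.5 HE cells, 1144.65 and 1382 CPM in KO cells and 413.95 and 464.1 CPM at E18.5. The adult DTReGFP libraries held 0.75 and 0.5 CPM (mouse 71, duodenum and ileum) and 1.8 and 0.25 CPM (mouse 77). The Cre libraries held 0.7 and 0 CPM (HE) and 2.6, 0.2 and 3.55 CPM (cKO). The lowest fetal library was 117 times above the highest adult library. An antisense gene, Igf2os, overlaps Igf2, and the strand setting of the counting is not given in the sources used here, so reads of the pair may not be separable.

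Cdkn1c codes for the cyclin-dependent kinase inhibitor p57, a maternally expressed brake on the cell cycle. Its values were 295.5 and 259.8 CPM in E16.5 HE cells, 146.7 and 156.05 CPM in KO cells, and 49.35 and 53.25 CPM at E18.5. Unlike H19 and Igf2, it remained measurable in all 9 adult libraries. The duodenum of mice 71 and 77 held 40.5 and 48.95 CPM, and the ileum 13.65 and 10.1 CPM. The Cre ileum held 5 and 3.9 CPM (HE) and 10, 3.35 and 7.75 CPM (cKO). Adult duodenum thus came close to the E18.5 libraries, while no ileum library exceeded 13.65 CPM.

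Peg3, a paternally expressed zinc-finger protein, was nearly equal in the 4 E16.5 pools at 214.75 and 206.35 CPM (HE) and 206.45 and 208.85 CPM (KO), and was at 48.45 and 49.1 CPM at E18.5. The adult DTReGFP libraries held 2.35 and 0.25 CPM (mouse 71, duodenum and ileum) and 0.9 and 3 CPM (mouse 77). The Cre libraries held 2.7 and 16.55 CPM (HE) and 26.35, 8.6 and 13.75 CPM (cKO). The Cre libraries therefore varied widely for this gene, and 4 of the 5 exceeded every DTReGFP adult library.

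Dlk1, a paternally expressed transmembrane protein related to Notch ligands, was low throughout, at 21.95 and 17.7 CPM in E16.5 HE cells, 5.4 and 14.7 CPM in KO cells and 0.95 and 2.2 CPM at E18.5. No adult library exceeded 0.75 CPM.

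In the let-7 group, Hmga2, a chromatin architectural protein, was at 323.7 and 390.95 CPM in E16.5 HE cells, 441.55 and 506.2 CPM in KO cells and 238.7 and 251.25 CPM at E18.5. It was the best retained of this group in adults, at 44.25 and 46 CPM in mouse 71 (duodenum and ileum), 36.85 and 47.65 CPM in mouse 77, 24.1 and 35.05 CPM in the Cre HE libraries and 32.75, 43.05 and 37 CPM in the Cre cKO libraries. Its highest adult library, at 47.65 CPM, lay below its lowest fetal library, at 238.7 CPM. Igf2bp3, which binds and stabilises mRNAs, changed little between the fetal stages, with 205.35 and 246.7 CPM in E16.5 HE cells, 257 and 269.6 CPM in KO cells and 198.35 and 194.95 CPM at E18.5. Its adult values ran from 5.65 to 20.7 CPM, the highest in the duodenum of mouse 71. Igf2bp1 was at 147.35 and 135.2 CPM in E16.5 HE cells, 204.5 and 186.6 CPM in KO cells and 83.05 and 95.1 CPM at E18.5, whereas no adult library exceeded 3.25 CPM and 6 of the 9 were at or under the floor.

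Lin28b, the upstream member of this circuit, was hardly detected in any sorted library. The highest values were 4.55 CPM in the second E16.5 HE pool and 4.4 CPM in the second KO pool, and the first HE pool was within the floor at 0.8 CPM. It was 0.5 and 0 CPM at E18.5 and 0 in all 4 adult DTReGFP libraries, and up to 2.15 CPM in the Cre libraries. No order between the stages was detectable at this depth for this gene.

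Hif3a, a member of the hypoxia-inducible factor family that can limit the activity of the others, followed another course. It was at 358.95 and 283.5 CPM in E16.5 HE cells and 368.4 and 360.5 CPM in KO cells, and at 618.75 and 630.55 CPM at E18.5. The adult DTReGFP libraries held 1.25 and 1.25 CPM (mouse 71, duodenum and ileum) and 0.9 and 5.3 CPM (mouse 77). The Cre libraries ranged from 2.1 to 8.45 CPM. It was the single member with its highest values at E18.5 and not at E16.5.

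**Figure D1:**
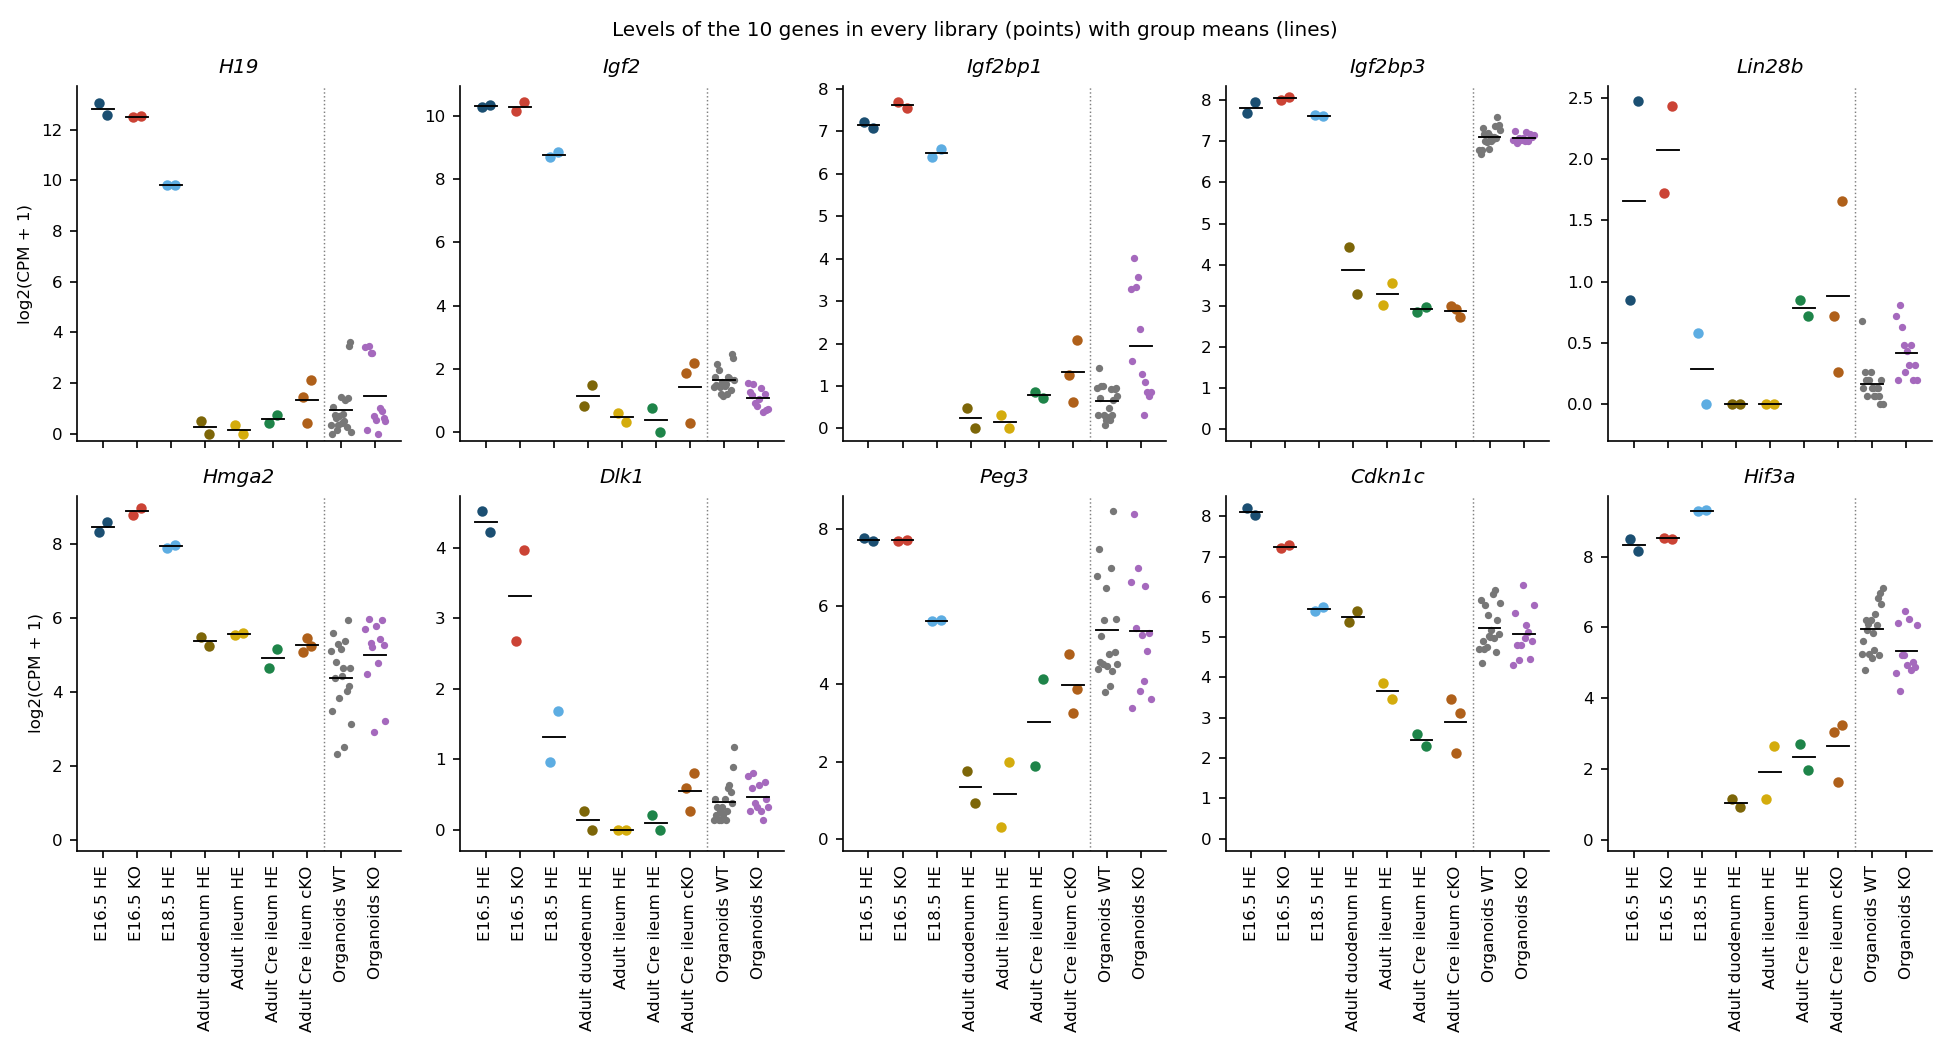
CPM of the 10 genes (log axis) in each sorted-cell library and each organoid library, coloured by group, with a dotted line before the organoid libraries, which come from a separate table. H19 lies between 5749 and 8632 CPM at E16.5, at 900.55 and 903.45 CPM at E18.5 and at most at 3.35 CPM in adults, while Hmga2 stays above 24 CPM in every adult library.

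Levels of different genes were compared per kilobase of exon. In E16.5 HE cells the mean order was H19 (3010 CPM per kb), Igf2 (222), Cdkn1c (136), Hmga2 (52.8), Hif3a (47.9), Igf2bp3 (27.7), Peg3 (15.8), Igf2bp1 (14.6), Dlk1 (3.505) and Lin28b (0.295). Hmga2 and Hif3a were the neighbours in this order whose 2 libraries overlapped. In the 4 adult DTReGFP libraries the order was led by Cdkn1c (13.9 CPM per kb), Hmga2 (6.45) and Igf2bp3 (1.45), and each of the other 7 was below 0.4.

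The contrast that selected the genes, the 4 adult DTReGFP libraries against the 2 E18.5 HE libraries, is described without a test. H19, Igf2, Igf2bp1, Igf2bp3, Hmga2, Peg3, Cdkn1c and Hif3a each had a lower mean in adults. These were the 8 members that reached 1 CPM in 2 or more libraries, and Lin28b and Dlk1 did not pass this filter. Across all 19554 genes that passed, 9.65% were called lower, and nothing is read from this share. H19 was at least 1336-fold and Igf2bp1 at least 132-fold lower in adults when set against the floor of 3 reads per library. The ratio of means was 287 for Hif3a, 16.6 for Igf2bp3 and 5.61 for Hmga2. Cdkn1c had a mean of 51.3 CPM at E18.5 and of 28.3 ± 19.3 CPM in adults (SD, n = 4 libraries of 2 mice). The duodenum and ileum lay on opposite sides of the adult mean.

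The 2 adult Cre HE libraries and the 2 E16.5 HE pools did not enter that contrast, but they were in view when the set was picked for fetal levels, so their comparison is no independent evidence and is given as a description too. It differs in stage, mouse line, sorting gate, tamoxifen and intestinal region, and these cannot be told apart. All 9 members that passed the filter were lower in adults. Across the genome 20.5% of 18786 genes were called lower and 34.5% higher (limma, Benjamini-Hochberg adjusted p below 0.1 and fold change above 1.5), and nothing is read from these shares. H19 was at least 10970-fold lower (log2 fold change -12.26, SE 0.21), where a fitted value depends on the pseudocount. Igf2 (log2 fold change -9.93), Igf2bp1 (-6.37) and Dlk1 (-4.27) were near 0 in adults as well, and Dlk1 was at least 29.4-fold lower. Hif3a fell from a mean of 321 to 4.25 CPM, a ratio of 75.6, and Cdkn1c from 278 to 4.45 CPM, a ratio of 62.4. The ratio was 34.6 for Igf2bp3, 21.9 for Peg3 and 12.1 for Hmga2. Lin28b did not pass the filter. The median log2 fold change of the 9 members was -5.68 and that of all genes tested 0.26.

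Between the fetal stages, 6 members were called lower and 1 was called higher at E18.5 than at E16.5 in HE cells. Across all 18408 genes tested, 19.4% were called lower and 30.3% higher. The E18.5 libraries entered the contrast used for selection, and the E16.5 HE pools were in view when the set was picked. This comparison is therefore no independent evidence, and its calls and p-values are only a description. Cdkn1c (log2 fold change -2.41, SE 0.12), Peg3 (-2.09, SE 0.11), Igf2 (-1.53, SE 0.10) and Igf2bp1 (-0.66, SE 0.12) fell, with limma adjusted p of 1.52e-04, 1.60e-04, 2.94e-04 and 0.00647. H19 fell by a ratio of 8.21 (log2 fold change -3.02, SE 0.17, limma adjusted p = 1.87e-04) and Dlk1 by a ratio of 12.6 (-3.05, SE 0.37, adjusted p = 0.00156). Hif3a rose (0.97, SE 0.13, limma adjusted p = 0.00225). Hmga2 differed by a log2 fold change of -0.54, which was under the required 1.5-fold although its limma adjusted p was 0.0126, and Igf2bp3 by -0.19 (adjusted p = 0.2198). Lin28b was not tested. The calls rested on having both E18.5 embryos: without the first or the second, 2 of the 7 (Peg3 and Cdkn1c) remained called, with all signs kept.

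Markers of other cell types moved with these stages. The 20 mesenchymal markers summed to 2923 and 1455 CPM in the E16.5 HE pools, to 311 and 881 CPM in the KO pools, to 130 and 125 CPM at E18.5 and to 9.35 to 89.2 CPM in the 9 adult libraries. All 18 tested markers of this list fell between E16.5 and E18.5. The 10 blood cell markers summed to 410 to 529 CPM in E16.5 HE cells, 122 to 206 CPM in KO cells, 35.1 to 42.7 CPM at E18.5, 1497 to 3150 CPM in the adult DTReGFP libraries and 48.5 to 75.6 CPM in the Cre libraries. Most of the adult DTReGFP sum was the single gene Lyz2, with a mean of 2197 CPM, while Hba-a1, Hbb-bt and Hbb-y were at 0 there. The sum of the 10 intestinal stem cell markers moved the other way. It was 662 to 907 CPM in the E16.5 pools and 2864 and 2958 CPM at E18.5. Most of this rise was the single gene Olfm4, with HE means of 158.25 CPM at E16.5 and 1891.6 CPM at E18.5. Tnfrsf19 was the single marker of this list whose HE mean fell, from 17.475 to 1.8 CPM. Within E16.5, the KO pool of litter 85 had the lowest mesenchymal sum, 9.39 times below the HE pool of its litter, and an H19 value 1.501 times below it. Igf2 in these 2 pools was 1244 and 1145 CPM. Hif3a, Igf2bp1, Igf2bp3 and Hmga2 were each higher in that KO pool than in its HE pool, whereas Dlk1 was 4.06 times lower. The part of mesenchymal cells in the fall between stages was not tested. In bulk samples, fewer cells of a type and less RNA per cell cannot be told apart.

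**Figure D2:**
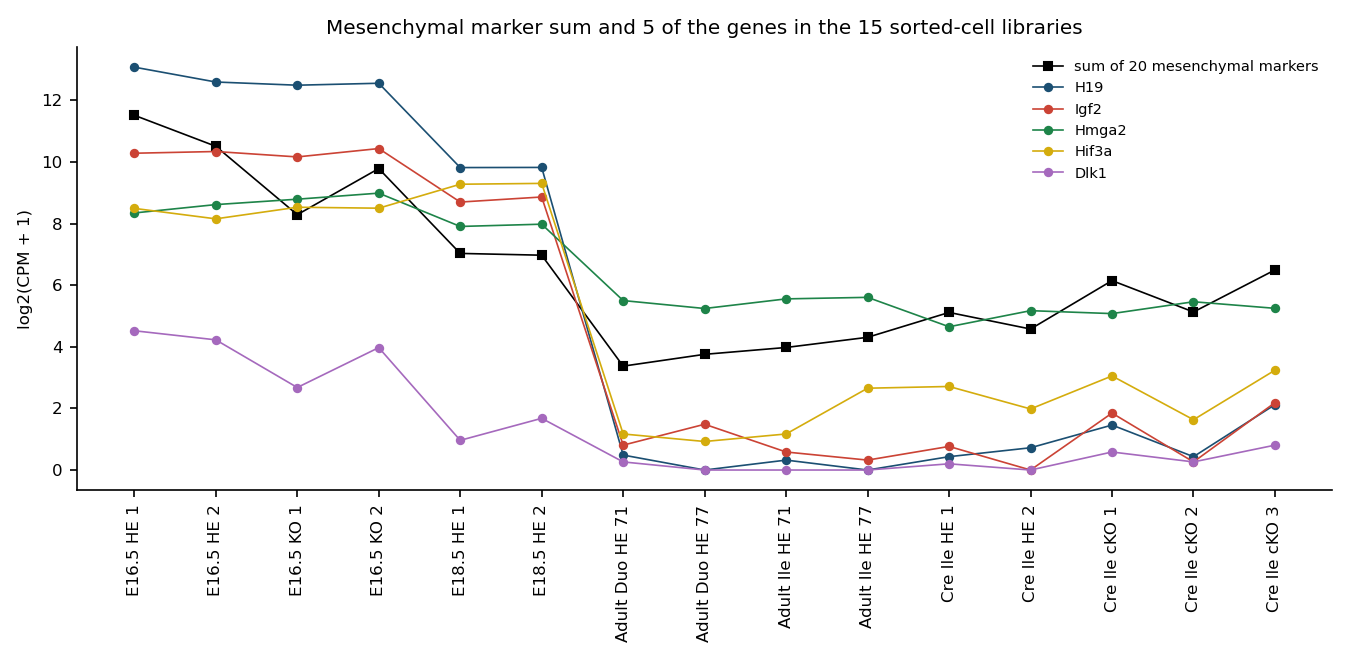
Summed CPM of 20 mesenchymal markers and the CPM of H19, Igf2, Hmga2, Hif3a and Dlk1 in each sorted-cell library, on a log scale. Among the 4 E16.5 pools the mesenchymal sum ranges from 311 to 2923 CPM, while Igf2 stays between 1144.65 and 1382 CPM.

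The E16.5 pools were also compared between Lgr5 KO and HE cells. Cdkn1c was lower in both KO pools, 146.7 against 295.5 CPM in litter 85 and 156.05 against 259.8 CPM in litter 97, with a log2 fold change of -0.87 (SE 0.14). This difference was known when the gene was taken into the set and is given as a description. It was the single member of 10 called, where 0.527% of 17276 genes were called and 0.44% were called lower. The other 9 did not pass the limits, and 4 of the 10 had an unadjusted limma p under 0.05, as did 2354 of the 17276 genes. H19 had a log2 fold change of -0.31 (SE 0.19, limma adjusted p = 0.496), with -0.59 in litter 85 and -0.04 in litter 97. Igf2 had -0.01 (SE 0.14) and Peg3 -0.02 (SE 0.13). Igf2bp1 was higher in both KO pools (0.47, SE 0.14, limma adjusted p = 0.209), and so was Hmga2 (0.41, SE 0.15, adjusted p = 0.270). Dlk1 had -1.05 (SE 0.41, limma adjusted p = 0.307), made of -1.84 in litter 85 and -0.25 in litter 97.

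With the litter as a block, Dlk1 was called as well (adjusted p = 0.0752), and the number of genes called across the genome rose from 91 to 830. Without any of the 4 pools in turn, no member was called. The mesenchymal sums given above differed between the genotypes in both litters, with all 18 tested markers lower in KO and 1 of them called, and the blood cell sums were lower in KO too. Their part in the Cdkn1c and Dlk1 values was not tested. Xist stood at 1.55 CPM in the KO pool of litter 85, which held 2 embryos, and at 639 to 1224 CPM in the other 3 pools.

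In adult ileum after acute recombination, none of the 8 members tested by limma was called between the libraries labelled cKO and HE. None of these had an unadjusted p under 0.05. Across the genome 0.0504% of 19848 genes were called and 902 had an unadjusted p under 0.05. The log2 fold changes ran from -0.04 (Igf2bp3, SE 0.24) to 1.05 (Igf2, SE 0.61), and the standard errors reached 0.68 (Peg3). When the libraries were grouped by the genotypes of the study's supplementary dataset instead of the labels, Hif3a was called (1.19, limma adjusted p = 0.0772) and 779 genes were called across the genome, against 10. As noted, sex and labelled genotype coincided in these libraries.

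Between adult ileum and duodenum of the same 2 mice, Cdkn1c was lower in ileum in both, 13.65 against 40.5 CPM in mouse 71 and 10.1 against 48.95 CPM in mouse 77 (log2 fold change -1.84, SE 0.23, limma adjusted p = 0.00714). This fit did not pair the samples by mouse, and the call was kept with the mouse as a block. Cdkn1c was the single member called of the 5 that passed the filter, where 4.64% of 18608 genes were called lower. Igf2bp3 (-0.58, SE 0.40), Hmga2 (0.21, SE 0.18), Peg3 (-0.17, SE 0.58) and Hif3a (0.86, SE 0.49) were not called, and H19, Igf2, Igf2bp1, Lin28b and Dlk1 were too low to be tested. Without the duodenum of mouse 77 the Cdkn1c difference was -1.70 and lost its call (limma adjusted p = 0.178).

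In the organoids, some of these genes were readily measured and others were close to 0. The sorted and organoid libraries were made with different kits, and no test was run between their tables. Igf2bp3 was at 103 to 192 CPM in the 30 organoid libraries, Hif3a at 17.6 to 137 CPM, Cdkn1c at 18.9 to 78 CPM, Hmga2 at 4 to 62.4 CPM and Peg3 at 9.4 to 350 CPM. H19 ranged from 0 to 11.3 CPM, Igf2 from 0.55 to 4.5 CPM, Dlk1 from 0.1 to 1.25 CPM and Lin28b from 0 to 0.75 CPM. The pair that led the E16.5 order was thus close to 0 in organoids from E17.5 embryos. None of the 20 mesenchymal markers was above 10 CPM in all organoid libraries, and their sum was 9.65 to 20.4 CPM.

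Single cultures stood apart for the low genes. Igf2bp1 was at 2 to 15.3 CPM in KO culture 7 and at most at 1.7 CPM in the other 4 cultures. H19 reached 8.1 to 10.1 CPM in 4 of the 6 libraries of KO culture 7 and 9.9 and 11.25 CPM in 2 libraries of WT culture 30, and was at most 1.7 CPM everywhere else. Averaged over the 6 conditions of each culture, Hmga2 was at 23.6, 22.7 and 27.6 CPM in WT cultures 10, 5 and 30 and at 36.1 and 38.2 CPM in KO cultures 7 and 2. Hif3a was at 52.2, 54.0 and 96.1 CPM in the WT cultures and at 45.3 and 42.8 CPM in the KO cultures. Igf2 was at 2.31, 1.57 and 2.80 CPM in WT and 1.34 and 0.958 CPM in KO.

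None of the 7 members tested was called between the 2 KO and 3 WT cultures by limma (unadjusted p under 0.05 in 3 of them, Hmga2, Igf2 and Hif3a). Hmga2 had a log2 fold change of 0.62 (SE 0.12, adjusted p = 0.193), Igf2 of -0.57 (SE 0.18, adjusted p = 0.395) and Hif3a of -0.62 (SE 0.24, adjusted p = 0.503). Across the genome 0.169% of 17140 genes were called at an adjusted p below 0.05, and 1578 had an unadjusted p under 0.05. A fit that took the 30 libraries as separate replicates called 4 members, but libraries of the same culture share an embryo.

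Between the doses of Rspondin, the same 4 of the 8 members tested were called in both genotypes. From 5 to 100 ng/ml, Peg3 and Hmga2 rose and Hif3a and Cdkn1c fell. In WT cultures 13292 of 19130 genes were called, 51.9% of all genes higher and 17.6% lower. Calls in either direction were thus common, and nothing is read from the number of members called in either genotype. Peg3 was higher at 100 ng/ml in 9 of 9 pairs of the same WT culture and ligand, with a median ratio of 4.17 and a range of 1.67 to 12.9. Hmga2 was also higher in 9 of 9 pairs, with a median ratio of 3.14. Hif3a was lower in 9 of 9 pairs (median ratio 0.584) and Cdkn1c in 8 of 9 (median ratio 0.558). On the log2 scale the differences were 2.02 (SE 0.29) for Peg3, 1.59 (SE 0.12) for Hmga2, -0.85 (SE 0.20) for Hif3a and -0.81 (SE 0.12) for Cdkn1c, with limma adjusted p of 2.62e-06, 3.32e-10, 5.76e-04 and 2.53e-06. Libraries and pairs of the same culture share an embryo, but the libraries entered the dose and ligand fits as separate replicates. The p-values of these fits, here and below, thus measure the spread between libraries and not between embryos. Igf2bp3 had -0.17 (SE 0.08, limma adjusted p = 0.0744), and was called with the culture as a block (adjusted p = 0.00828). H19, Igf2 and Igf2bp1 were tested and not called, and Lin28b and Dlk1 were not tested.

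In KO cultures the same 4 genes were called in the same directions, where 37.4% of 19130 genes were called higher and 13.2% lower. Peg3 was higher at 100 ng/ml in 6 of 6 pairs (log2 fold change 2.32, SE 0.36), Hmga2 in 5 of 6 (1.12, SE 0.15), while Hif3a was lower in 6 of 6 (-1.06, SE 0.24) and Cdkn1c in 4 of 6 (-0.50, SE 0.14). The limma adjusted p were 1.75e-05, 3.22e-06, 8.80e-04 and 0.00633. With the culture as a block, H19 (1.15, adjusted p = 0.0252) and Igf2bp1 (0.79, adjusted p = 4.25e-04) were called too, and the higher values of both came from culture 7. Without culture 7, Hif3a and Cdkn1c were no longer called (limma adjusted p = 0.0931 and 0.521). Without culture 2, 6 members were called. No difference in dose response between KO and WT was called by limma in the 8 members tested, where 0.0314% of all genes were called. In 1 of them, Hmga2, the unadjusted p was under 0.05 (-0.47, SE 0.19, adjusted p = 0.557). The comparison took all ligands together, with standard errors up to 0.80 (H19), so it does not show that the responses were equal.

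The dose also moved the whole distribution. The median log2 fold change of all genes was 0.24 in WT and 0.17 in KO, and TMM scaling brought it to 0.02 and 0.01. The numbers of genes called higher and lower in WT were then 6261 and 5924 instead of 9927 and 3365. All 4 members kept their direction and call under that scaling, and Igf2bp3 was then called lower in both genotypes (-0.45 in WT and -0.34 in KO) and Igf2 in WT (-0.32). The 10 intestinal stem cell markers all rose with the dose in both genotypes, by a median log2 of 2.83 in WT and 2.41 in KO.

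**Figure D3:**
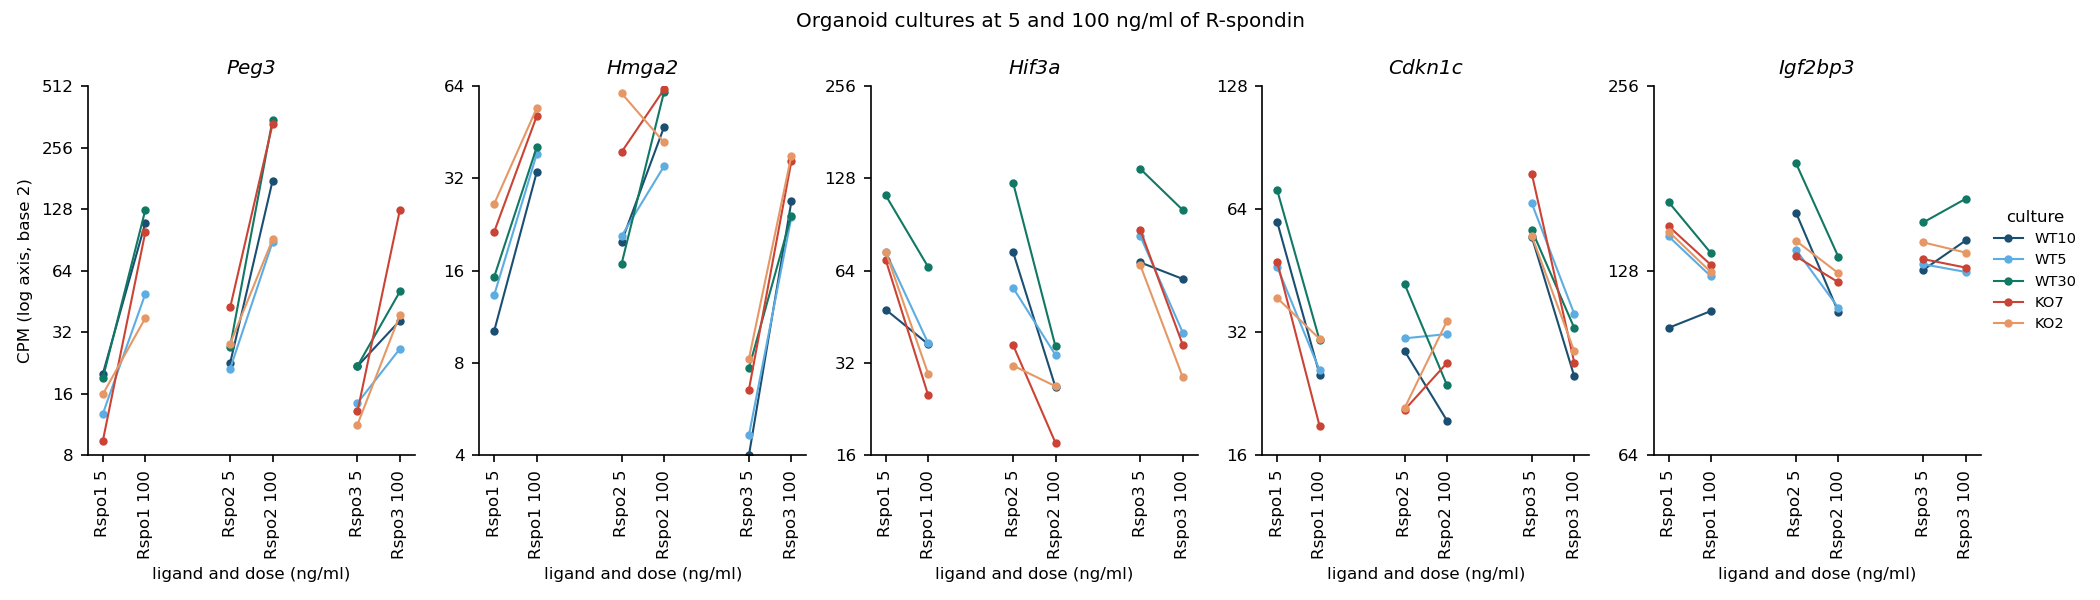
CPM (log axis, base 2) of Peg3, Hmga2, Hif3a, Cdkn1c and Igf2bp3 at 5 and 100 ng/ml of each Rspondin, with a line joining both doses for each of the 5 cultures. Peg3 rises in all 15 pairs and Hif3a falls in all 15, whereas Hmga2 falls in KO culture 2 with Rspondin 2.

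The ligands were examined separately, and in each case the share of all 19130 genes called is given beside the members. With Rspondin 1, Hmga2 and Peg3 were called higher and Cdkn1c lower in both genotypes, with log2 fold changes of 1.48, 2.31 and -1.07 in WT and 1.11, 2.22 and -0.81 in KO (53.4% of all genes called in WT, 29.8% in KO). Hif3a was called there in KO (-1.36, limma adjusted p = 0.0168) and not in WT (-0.70, adjusted p = 0.0845). With Rspondin 3, Hmga2 rose by 2.05 in WT and 2.19 in KO and Cdkn1c fell by 0.92 and 1.21 on the log2 scale (51.4% of all genes called in WT, 44.5% in KO). Peg3 (2.44, limma adjusted p = 0.00286) and Hif3a (-1.20, adjusted p = 0.0219) were called with this ligand in KO, and in WT they had 0.91 (adjusted p = 0.139) and -0.55 (adjusted p = 0.182). With Rspondin 2, Hmga2 (1.24), Peg3 (2.85) and Hif3a (-1.30) were called in WT, together with Igf2 (-0.71) and Igf2bp3 (-0.45), where 33.4% of all genes were called. In KO none of the 8 tested was called by limma and 2 had an unadjusted p under 0.05, where 0.115% of all genes were called and 1327 had such a p. These 2 were Peg3 (2.31, SE 0.62, adjusted p = 0.235) and Cdkn1c, which was higher and not lower at the high dose (0.52, SE 0.25, adjusted p = 0.713). In the KO cultures with Rspondin 2, Hmga2 was 39 and 60.6 CPM at 5 ng/ml and 62.4 and 41.9 CPM at 100 ng/ml, so that the low dose already overlapped the high dose. With the culture as a block, an alternative chosen after seeing the data, 8 more values were called. They were Hif3a with Rspondin 1 in WT (limma adjusted p = 0.00411), H19 and Igf2bp1 with Rspondin 1 in KO (0.0412 and 0.00112), Peg3 with Rspondin 2 in KO (0.0114, with 224 genes called across the genome against 22) and H19, Igf2, Peg3 and Hif3a with Rspondin 3 in WT (0.0446, 0.00628, 0.0265 and 0.0206). Thus the calls of Hif3a with Rspondins 1 and 3 and of Peg3 with Rspondin 3 were made in both genotypes under the block. The difference between ligands or genotypes in these dose responses was not tested for single ligands.

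At both doses together, WT organoids in Rspondin 2 differed from those in Rspondin 1 in 1 of the 8 members, Cdkn1c (log2 fold change -0.46, SE 0.14, limma adjusted p = 0.0389), where 12.1% of all genes were called. The call was lost without culture 10 or culture 30 (limma adjusted p = 0.339 and 0.219). With the culture as a block, Hmga2 (0.43, adjusted p = 0.0261) and Peg3 (0.72, adjusted p = 0.0330) were called as well. Rspondin 3 differed from Rspondin 1 in Hmga2 (-0.85, SE 0.15, limma adjusted p = 6.60e-04), where 25.6% of all genes were called. The block added Hif3a (0.39, adjusted p = 0.0289). Across all genes, Rspondin 3 against Rspondin 1 had a median log2 fold change of -0.12, which TMM scaling moved to -0.01 with 2083 genes called higher and 1848 lower, in place of 1051 and 3837.

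Other genes of the same pathways were counted from lists, without the 10 members. In adult Cre HE against E16.5 HE cells, 10 of 16 other paternally expressed imprinted genes were called lower and none higher, with a median log2 fold change of -1.68. Of 16 other maternally expressed genes, 8 were called lower and 8 higher. Across all 18786 genes tested, 20.5% were called lower and 34.5% higher. Plagl1, an imprinted zinc-finger protein, had means of 212 CPM at E16.5 and 1.55 CPM in the Cre adults (log2 fold change -6.38). Grb10, an imprinted adaptor that restrains insulin and IGF signalling, had means of 392 and 0.825 CPM (-7.75). The noncoding RNAs Rian and Meg3, which are expressed from the same imprinted region as Dlk1, were lower as well (-6.01 and -5.23).

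In the LIN28 and let-7 list, 6 of 13 others were called lower and 4 higher, with a median of -0.20. For this and the following lists, the shares over all genes were again 20.5% lower and 34.5% higher. Nothing is read from the counts of these short lists. Trim71, a let-7 target, had means of 47.1 CPM in E16.5 HE cells, 58.6 CPM at E18.5 and 0.113 CPM in the 4 adult DTReGFP libraries. Igf2bp2, the third member of the IGF2BP family, was lower in the Cre adults (-2.60, limma adjusted p = 0.0146). It kept a mean of 63.0 ± 5.40 CPM in the adult DTReGFP libraries (SD, n = 4 libraries of 2 mice). In the IGF list, 10 of 15 others were called lower and 1 higher. Igf1, the growth factor related to Igf2, had a mean of 28.4 CPM at E16.5 and was at 0 in both Cre HE libraries. Among the other CDK inhibitors, none of 5 was called lower and 2 were called higher: Cdkn2c (2.71, limma adjusted p = 0.00461) and Cdkn1b (0.61, adjusted p = 0.0604). Of the 9 other genes of the HIF list, 4 were called lower and 1 was called higher. Egln3, an oxygen-sensing prolyl hydroxylase, had means of 62.4 CPM at E16.5, 63.8 CPM at E18.5 and 2.06 CPM in adult DTReGFP cells.

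In E16.5 KO against HE cells, 3 genes of these lists other than Cdkn1c were called, all lower: the paternally expressed Peg10 (-2.19, SE 0.38, limma adjusted p = 0.0701), Rian (-1.34, SE 0.23, adjusted p = 0.0677) and Igf1 (-1.82, SE 0.34, adjusted p = 0.0795). Across the genome 0.44% of 17276 genes were called lower. The mesenchymal sums given above were lower in KO too, and their part in these values was not tested.

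The 5 genes whose pattern over the 15 sorted-cell libraries was most like the mean z-score of the members, among 13054 genes, were Emid1 (Pearson r = 0.992), Mir675 (0.992), Nrk (0.990), Igf2os (0.990) and Sox11 (0.990). The libraries share their stage, and these correlations are a description. Mir675 is the gene model of the microRNA printed above and lies inside H19, and Igf2os overlaps Igf2, so both may count the same transcripts as members. Sox11, a transcription factor of embryonic tissues, had means of 98.9 CPM in E16.5 HE cells, 92.3 CPM in KO cells and 11.0 CPM at E18.5, and no adult library exceeded 0.65 CPM. Emid1, an extracellular matrix protein, had means of 74.4, 62.1 and 14 CPM in these groups, and Nrk, a protein kinase, 19.03, 14.95 and 7.10 CPM.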

How the data were processed

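The libraries were made by the authors from sorted cells or organoids and sequenced. Per the labels and the study's methods, reads were trimmed with Trimmomatic 0.36, mapped to GRCm38 with STAR 2.5.3a and counted per Ensembl gene with HTSeq 0.9.1. The authors deposited CPM values, rounded to 0.05, in 1 table of 15 sorted-cell libraries (Ovation SoLo kit) and 1 of 30 organoid libraries (NEBNext kit with rRNA depletion). Raw counts were not used here. The strand setting of the counting is not given in the sources used here.

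Differences were tested on log2(CPM + 1) with limma 3.58.1 (R 4.3.3, eBayes with trend), over all genes that reached 1 CPM in a number of libraries equal to the size of the smaller group, with Benjamini-Hochberg adjustment over all of them. A fold change on this scale understates the change of low genes. Calls required an adjusted p below 0.1 and a 1.5-fold change in sorted cells, and an adjusted p below 0.05 in organoids. The tables were tested separately. Organoid KO against WT used the mean of each culture. The fits were tested on simulated data. Whole reads were recovered from the CPM steps of the 4 E16.5 pools, and edgeR 4.0.16 was run there, and only there, as an alternative. The other alternatives were a pseudocount of 0.1, no filter, TMM scaling, a fit of all 15 sorted libraries, a replicate block and leaving out each library or culture. Where nothing says that replicates came from separate animals, p-values measure only the spread between samples.

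Pairing came from the labels: E16.5 pools of both genotypes share litters (correlation of deviations -0.03), ileum and duodenum share mice (0.26) and organoid conditions share cultures (0.35 to 0.76). The members and gene lists were chosen with earlier results of these data known. The genes named were all members, Lgr5, up to 3 list genes with the largest change among those called per list and comparison, and the 5 genes most correlated with the members. Motifs and microRNAs were read from GENCODE vM21 transcripts (GRCm38) and RefSeq tables.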

Additional observations from a re-analysis of the deposited data

Results flagged for a closer look

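In the group of 4 adult DTReGFP libraries, 6 members were high enough to look for a library far from the others, and 1 was found. Hif3a stood at 5.3 CPM in the ileum of mouse 77 and at 0.9 to 1.25 CPM in the other 3 libraries, a gap larger than the 95% limit of Dixon's test for 4 samples. Chance flags about 1 group in 20 when the samples are separate. These libraries are duodenum and ileum of the same mice, so the flag is only a description. The lower values also lie close to the floor, which was 0.55 to 0.75 CPM in these libraries. The values of the 5 adult Cre ileum libraries, from 2.1 to 8.45 CPM, span the same level.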

How the results depend on the processing

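Of 96 values recomputed under 907 alternatives in all, 836 kept their direction and their side of the threshold, and 28 changed sign. The counts of members called were most fragile in small designs. For E18.5 against E16.5, leaving out a library gave 2 to 8 members (768 to 9983 genes called across the genome, against 9138). For E16.5 KO against HE, the count of 1 became 0 with a pseudocount of 0.1 (2 genes), without a filter (0 genes), in a fit of 15 libraries (1259 genes) and on leaving out any pool (0 to 8 genes). It became 2 with the litter block (830 genes), and TMM scaling gave 243 genes and edgeR 310, against 91. Ileum against duodenum gave 0 to 1 members when a library was left out (68 to 612 genes), 223 genes without a filter and 2065 with the mouse block, against 1280. The cKO count of 0 became 1 with the supplementary genotypes (779 genes, against 10; the other alternatives gave 3 to 22). For Cre HE against E16.5 the count stayed at 9 while leaving out a library gave 3909 to 8880 genes, against 10328. Organoid KO against WT gave 4 with 30 libraries as replicates (3732 genes, against 29). Leaving out a culture there gave 0 members and 13 to 156 genes. The dose count in KO ran from 2 to 6 when a culture was left out (4603 to 9950 genes, against 9694), and its difference from WT stayed at 0 (0 to 71 genes, 157 with the culture block, 14 without a filter, against 6). Rspondin 2 against 1 gave 0 without a filter, 3 with the culture block (5079 genes) and 0 to 1 when a culture was left out (25 to 2891 genes, against 2316), and Rspondin 3 against 1 gave 2 with the block (7972 genes, against 4888; 813 without culture 10). The block changed no call of a member other than those given in the report, and in the Cre and stage comparisons, where replicates share only a number, it gave 0 (cKO), 9 and 7 members. Leaving out a library left some groups with a single one, which was then assumed to vary like the others. The cause of these changes was not tested.

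Values that changed sign, on the log2 scale, were all uncalled. Across left-out libraries, E16.5 KO against HE ran from -0.15 to 0.12 for Igf2, -0.39 to 1.23 for Lin28b and -0.0483 to 0.00899 for Peg3, and Peg3 in ileum against duodenum from -1.01 to 0.66. In cKO against HE the ranges were -0.0987 to 0.0340 for Igf2bp3, -0.16 to 2.09 for Peg3 and -0.0696 to 0.80 for Hif3a. With the replicate block the values there were 0.0340 for Igf2bp3 and -0.00398 for Hif3a, and with the supplementary genotypes -0.33 for Hmga2 and -0.18 for Peg3. Across left-out cultures, organoid KO against WT ran from -0.36 to 1.40 for H19, -0.0746 to 0.0944 for Igf2bp3 and -0.44 to 0.39 for Peg3, and the KO dose difference of Igf2 from -0.32 to 0.0169. The dose response of KO minus WT ran from -0.25 to 1.52 for H19, -0.18 to 0.15 for Igf2 (0.0708 with TMM scaling) and -0.51 to 1.11 for Peg3. Igf2bp3 in Rspondin 2 against 1 ran from -0.0125 to 0.20 and Cdkn1c in Rspondin 3 against 1 from -0.0895 to 0.20.

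The planned edgeR test was not run for the other 5 sorted-cell comparisons, each of which includes libraries with read steps closer to the rounding of the CPM. Lin28b and Dlk1 in adult cells, and H19 and Igf2bp1 in most adult libraries, were limited by depth.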
